A study of Homo sapiens with 6 samples.

Results

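RNA polymerase I is the enzyme that transcribes the ribosomal RNA genes in the nucleolus, and with its initiation factors it sets how much ribosomal RNA a cell can make. The complex has a catalytic core, a pair of subunits shared with RNA polymerase III, and a peripheral pair that includes POLR1E. At the ribosomal DNA promoter the architectural factor UBTF and selectivity factor 1, which holds TBP and the TAF1 proteins, receive a polymerase that carries RRN3. The 10 genes described here are the subunits POLR1A, POLR1B, POLR1C, POLR1D and POLR1E and the initiation factors UBTF, RRN3, TAF1B, TAF1C and TAF1D, found by name among the 18999 features of the deposited table. The genes were chosen by name and family with their FPKM in both groups known, and POLR1E was singled out for its difference in FPKM between the groups, so the differences of these 10 genes are a description and carry no test.

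The libraries came from MCF10A, an immortalised, non-tumorigenic human mammary epithelial line. Cells were transduced with a pMSCVpuro retrovirus that carries pre-miR-203a (3 libraries) or with the pMSCVpuro vector alone (3 libraries), and all cells were kept under puromycin. The stated purpose was to identify genes targeted by miR-203a, a microRNA of stratified epithelia. The series text describes total RNA, whereas the extract protocol describes an immunoprecipitation of AGO2, and which applied to these libraries could not be settled. Nothing in the labels states separate cultures, so the spread between libraries may be technical.

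Recovered reads over all listed features numbered 7632063 to 20831785 in the pre-miR-203a libraries and 15724554 to 35084590 in the empty-vector libraries. The 10 genes had between 150 and 6435 reads in a library. Mitochondrial genes took 6.12% ± 1.01 of reads in the pre-miR-203a group and 5.67% ± 2.50 in the empty-vector group (SD, n = 3 each). The insert was present as labelled, since MIR203A had 34827, 8476 and 20942 reads in pre-miR-203a libraries 1, 2 and 3, against 8, 21 and 22 in empty-vector libraries 1, 2 and 3. Summed FPKM of 8 basal mammary markers was 1051 to 1459 in the pre-miR-203a libraries and 1099 to 1388 in the empty-vector libraries. KRT14 added little to that sum, at 0.724 to 1.51 in the pre-miR-203a libraries and 0.834 to 1.84 in the empty-vector libraries. Within that sum members moved in opposite directions by adjusted limma p, since 2 of 8 were higher (CDH1, log2 fold change 0.85, and ITGB4, 0.51) and 1 lower (KRT5, −0.68). ITGB4 passed the threshold in 4 of 15 fits and KRT5 in 11, and the fits in which KRT5 missed it left out library 1 or library 2 of either group. With libraries of the same number paired in the fit, KRT17 was also higher (log2 fold change 0.82, adjusted p = 0.017, limma). TP63 was also lower in that fit (−0.81, adjusted p = 0.026), and ITGB4 did not pass (adjusted p = 0.053). Luminal markers summed to 206 to 270 in the pre-miR-203a libraries and 166 to 177 in the empty-vector libraries, without overlap, and 1 of 3 tested, KRT8, was higher (log2 fold change 0.93; adjusted p = 0.0099, limma). Fibroblast markers summed to 5.49 to 9.20 in the pre-miR-203a libraries and 3.75 to 6.59 in the empty-vector libraries, and 1 of 2 tested, COL1A1, was higher (log2 fold change 0.63; adjusted p = 0.013, limma). COL1A1 did not pass the threshold without pre-miR-203a library 1 or empty-vector library 1. Endothelial markers summed to at most 0.339 in the pre-miR-203a libraries and 0.270 in the empty-vector libraries, and the 1 listed immune marker of 4 was at most 0.121 and 0.118. The part of these marker differences in the results was not tested. The libraries numbered 3 stood apart from the others in both groups on the second principal component, which held 26.6% of the variance.

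A microRNA recognises its targets mainly through its seed, bases 2 to 8, which pairs with a complementary stretch in the 3′ UTR. The mature miR-203a-3p, which the vector insert encodes, is shown because its seed defines the matches searched for in the 10 genes. In the line below the seed is in capitals. The sequence is that of RefSeq on GRCh38.p14, chromosome 14, 104117469 to 104117490 on the + strand.
hsa-miR-203a-3p: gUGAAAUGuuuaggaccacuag

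No match to bases 2 to 7 of this microRNA, which all motifs searched contain, was found in POLR1E. A match to bases 3 to 8 alone was not searched for. Its longest annotated 3′ UTR (495 nt, GENCODE 29) and its coding sequence of 1446 nt held none, and neither did any of its 3 annotated transcripts over their whole length. The motifs searched, on the sense strand only, were CATTTCAA (8mer), CATTTCA (7mer-m8), ATTTCAA (7mer-A1) and ATTTCA (6mer), each longer match replacing the shorter one it contains. Of 10187 tested features with a 3′ UTR, 50.1% had none of these in the longest 3′ UTR. The best match was an 8mer in 7.34%, a 7mer-m8 in 15.4%, a 7mer-A1 in 9.98% and a 6mer in 17.2%. UBTF, POLR1C, TAF1B, TAF1C and TAF1D also had no match there. The best match was a 7mer-A1 in POLR1A, POLR1D and RRN3 and a 6mer in POLR1B, so that none of the 10 longest 3′ UTRs held an 8mer or a 7mer-m8. In the coding sequence of the same transcripts 69.2% of the 10187 features had none of these motifs. The best match in it was a 7mer-A1 in 7.06% of the features and a 6mer in 13.3%. POLR1B and RRN3 had a 7mer-A1 there and TAF1B a 6mer. Over whole transcripts, for which no background was counted, a 7mer or 8mer was in 16 of 23 annotated transcripts of TAF1C. The same held for 5 of 6 of RRN3, 8 of 17 of POLR1B and 6 of 24 of POLR1D. POLR1A, POLR1C, TAF1B and TAF1D had 1 such transcript each, and UBTF had none. The 7mer-A1 matches in the longest 3′ UTRs are printed on the transcript strand with the match in capitals, since they are the longest found in those 3′ UTRs. That of POLR1D lies in the transcript POLR1D-218, whose annotated coding sequence is only 141 nt.
POLR1A (GRCh38, chr2:86023588-86023617, - strand): cggtgtacaacaATTTCAAtttctccacat
POLR1D (GRCh38, chr13:27743688-27743717, + strand): ttggatattaggATTTCAAcacatgaattt
RRN3, first match (GRCh38, chr16:15061207-15061236, - strand): ttgtctgttgggATTTCAAgggagtgtaga
RRN3, second match (GRCh38, chr16:15060118-15060147, - strand): taagtctgtttaATTTCAAaggagtttgtg
A match is a stretch of letters and not a shown binding site, and its absence says nothing beyond these annotated transcripts. With any annotated 3′ UTR in place of the longest, TAF1B gained a 6mer and POLR1D a 7mer-m8, and POLR1E stayed without a match.

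Among the subunits, POLR1E stood apart from the other 4. POLR1E (ENSG00000137054.16; GENCODE 29 places it on GRCh38 chromosome 9, 37485935 to 37503697, + strand) encodes the subunit also known as PAF53, which forms the peripheral pair of the polymerase with the product of CD3EAP. It had FPKM of 7.66, 8.30 and 8.34 in pre-miR-203a libraries 1, 2 and 3, against 23.2, 25.9 and 23.4 in empty-vector libraries 1, 2 and 3. The 3 pre-miR-203a libraries lay close together and far below the 3 empty-vector libraries, with no overlap. The means were 8.10 ± 0.379 FPKM in the pre-miR-203a group and 24.2 ± 1.54 FPKM in the empty-vector group (SD, n = 3 each), so that POLR1E was at 33.5% of its empty-vector level. On the scale of log2(FPKM + 1) the fitted fold change, pre-miR-203a over empty vector, was −1.47 ± 0.10 (SE, limma). The underlying reads numbered 319, 432 and 159 in the pre-miR-203a libraries and 911, 2275 and 1679 in the empty-vector libraries. In bulk RNA, fewer cells that express a gene and less of its RNA per cell cannot be told apart. Whether these values are of total RNA or of an AGO2 immunoprecipitate could not be settled either.

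POLR1A and POLR1B, which together form the catalytic centre, showed no shift of that size. POLR1A, the largest subunit, had FPKM of 11.4, 12.9 and 10.7 in the pre-miR-203a libraries and 10.3, 11.5 and 9.16 in the empty-vector libraries, and the groups overlapped (log2 fold change 0.17 ± 0.13, SE). POLR1B, the second largest subunit, had 13.8, 15.1 and 12.9 in the pre-miR-203a libraries and 16.9, 18.8 and 16.2 in the empty-vector libraries. Its groups did not overlap, at a log2 fold change of −0.29 ± 0.11 (SE). POLR1C and POLR1D form the pair that RNA polymerases I and III share. POLR1C averaged 8.20 ± 1.24 FPKM in the pre-miR-203a group and 8.01 ± 1.66 in the empty-vector group (SD, n = 3 each), with a log2 fold change of 0.04 ± 0.17 (SE). POLR1D averaged 13.7 ± 2.49 FPKM in the pre-miR-203a group and 14.1 ± 1.06 in the empty-vector group (SD, n = 3 each), with a log2 fold change of −0.05 ± 0.14 (SE). The groups of both genes overlapped.

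**Figure D1:**
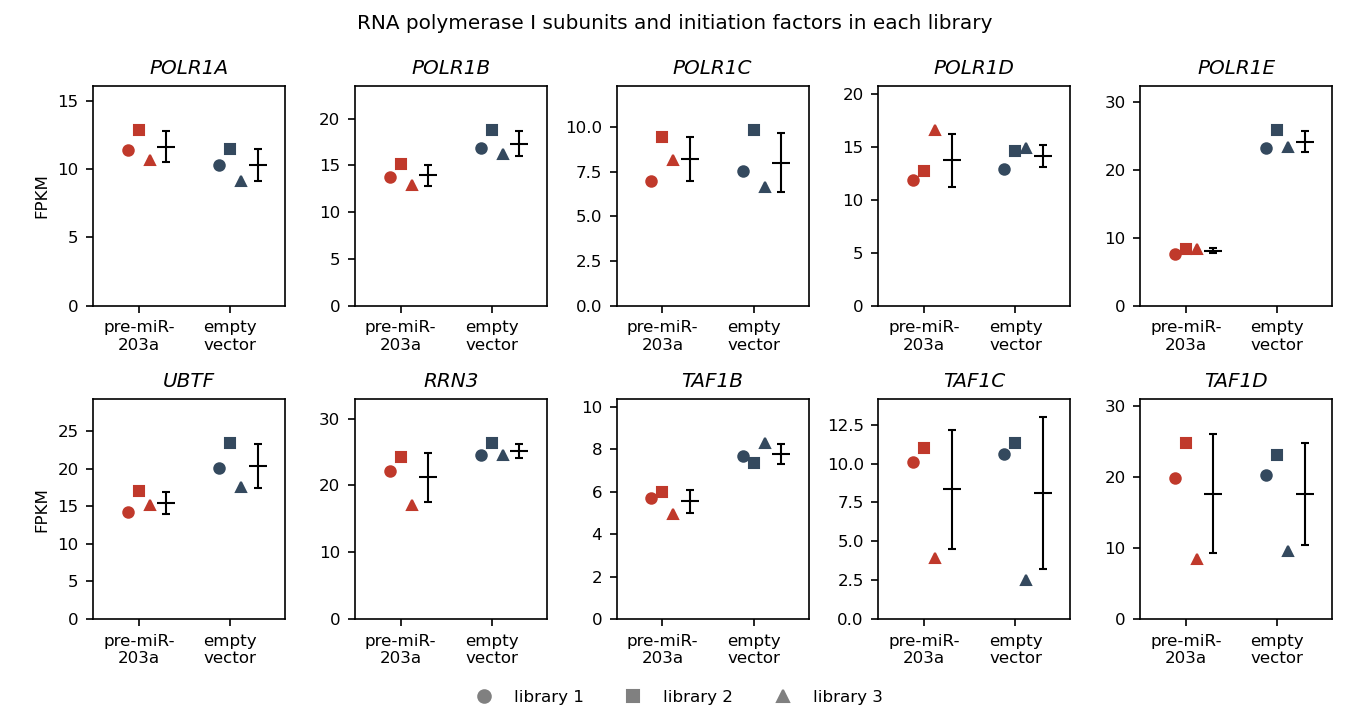
FPKM (y axis, from 0) of each of the 10 genes in every library, with pre-miR-203a on the left and empty vector on the right of each panel; circles, squares and triangles are libraries 1, 2 and 3, and bars give the mean ± SD of 3 libraries. POLR1E lies at 7.66 to 8.34 in the pre-miR-203a libraries and at 23.2 to 25.9 in the empty-vector libraries, and the triangles of TAF1C and TAF1D lie far below the other symbols in both groups.

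Of the initiation factors, UBTF, RRN3 and TAF1B were lower without overlap, and the groups of TAF1C and TAF1D overlapped. Of all tested features 20.9% were lower without overlap. UBTF, the HMG-box protein also known as UBF, had FPKM of 14.2, 17.0 and 15.2 in the pre-miR-203a libraries and 20.1, 23.4 and 17.6 in the empty-vector libraries. The groups did not overlap, and the log2 fold change was −0.37 ± 0.13 (SE). RRN3, also known as TIF-IA, which tethers the polymerase to the promoter factors, had 22.2, 24.3 and 17.1 in the pre-miR-203a libraries and 24.5, 26.3 and 24.6 in the empty-vector libraries. Its groups were next to each other without overlap, and library 3 was the lowest of the pre-miR-203a group (log2 fold change −0.25 ± 0.14, SE). Reads of RRN3 may be shared with near-identical pseudogenes, of which RRN3P3 was listed with FPKM of 1.91, 1.43 and 1.01 in the pre-miR-203a libraries and 1.21, 0.982 and 0.703 in the empty-vector libraries.

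TAF1B, TAF1C and TAF1D encode subunits of selectivity factor 1. TAF1B had FPKM of 5.71, 5.97 and 4.94 in the pre-miR-203a libraries and 7.68, 7.37 and 8.27 in the empty-vector libraries. Its groups did not overlap, at a log2 fold change of −0.43 ± 0.11 (SE). TAF1C had FPKM of 10.1, 11 and 3.92 in the pre-miR-203a libraries and 10.6, 11.3 and 2.50 in the empty-vector libraries. TAF1D, whose introns host several small nucleolar RNAs, had 19.8, 24.7 and 8.42 in the pre-miR-203a libraries and 20.3, 23.0 and 9.51 in the empty-vector libraries. Library 3 was by far the lowest in both groups for TAF1C and TAF1D, and the groups overlapped (log2 fold changes 0.13 ± 0.54 and −0.03 ± 0.44, SE).

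Counted over the 10 genes, all of which passed the filter on low FPKM, 2 were lower at an adjusted limma p under 0.05, POLR1E and TAF1B, against 9.18% of all 11271 tested features in that direction. When libraries of the same number were paired in the fit, 1 was lower, POLR1E, against 1122 of all 11271 tested features. Without both libraries numbered 3, 3 were lower (POLR1E, UBTF and TAF1B), against 1951 of all 11271 tested features. In the main fit none was higher (6.59% of all tested features). At an unadjusted p under 0.05, 4 were lower and 0 higher, against 17.1% and 13.0% of all tested features. Without overlap between the groups 5 were lower (POLR1B, POLR1E, UBTF, RRN3 and TAF1B) and 0 higher, against 20.9% and 16.6% of all tested features. Since the contrast was known when the genes were chosen, nothing is read from these counts. The count over all features was 1778 (15.8%), and 883, 745 and 900 without pre-miR-203a library 1, empty-vector library 1 and empty-vector library 2. Over the 15 fits made, the log2 fold change was −1.64 to −1.42 for POLR1E and −0.56 to −0.32 for TAF1B, as a description of the same values. The median log2 fold change of the 10 was −0.15, and that of all tested features −0.01.

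Set against its partners, POLR1E changed place in the order of levels. In the empty-vector group the order by mean FPKM was RRN3 (25.1), POLR1E (24.2), UBTF (20.4), TAF1D (17.6), POLR1B (17.3), POLR1D (14.1), POLR1A (10.3), TAF1C (8.12), POLR1C (8.01) and TAF1B (7.77). The ranges of neighbours in this order overlapped everywhere except between POLR1B and POLR1D and between POLR1D and POLR1A. POLR1E was in place 2 of 10 in each of the 3 empty-vector libraries, and in places 8, 9 and 7 in pre-miR-203a libraries 1, 2 and 3. Of the summed FPKM of the 5 subunits it made up 14.8%, 14.2% and 14.7% in the pre-miR-203a libraries, against 32.7%, 32.2% and 33.3% in the empty-vector libraries. This share varied little within a group, with means of 14.6% ± 0.331 in the pre-miR-203a group and 32.7% ± 0.569 in the empty-vector group (SD, n = 3 each).

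**Figure D2:**
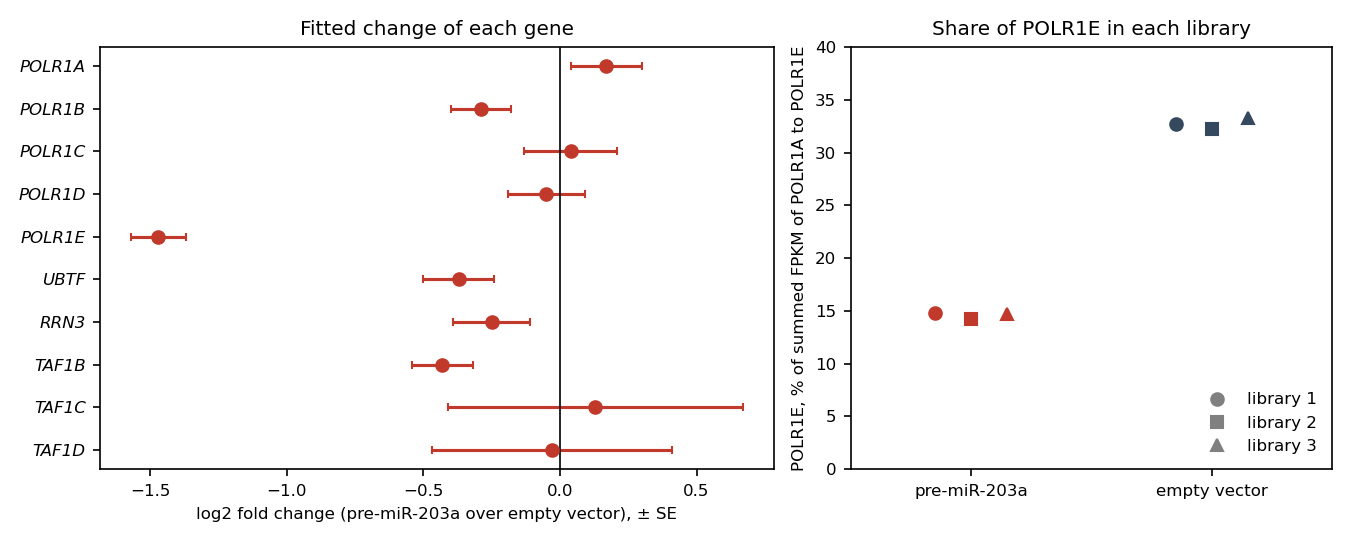
Left, fitted log2 fold change (x axis, pre-miR-203a over empty vector, on log2(FPKM + 1)) of each of the 10 genes with its SE; right, POLR1E as a percentage of the summed FPKM of POLR1A to POLR1E in each library, pre-miR-203a on the left. POLR1E lies at −1.47 and the other 9 between −0.43 and 0.17, and its share is 14.2% to 14.8% in the pre-miR-203a libraries and 32.2% to 33.3% in the empty-vector libraries.

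The difference log2(FPKM + 1) of POLR1E minus the mean over the other 9 genes was −0.58, −0.66 and −0.22 in pre-miR-203a libraries 1, 2 and 3, and 0.74, 0.75 and 1.09 in empty-vector libraries 1, 2 and 3. POLR1E was thus below the average of the other genes in every pre-miR-203a library and above it in every empty-vector library. Library 3 was the highest in each group, and it was also the library in which TAF1C and TAF1D were low. The group means were −0.49 ± 0.23 with pre-miR-203a and 0.86 ± 0.20 with empty vector (SD, n = 3 each), a difference of −1.35, which was −1.37 without both libraries numbered 3. With 3 libraries against 3 an exact permutation test could not have gone below 0.10, and none was run, because POLR1E was chosen for this difference. Of the 11271 tested features POLR1E was number 50 from the lowest log2 fold change, and TAF1B, next among the 10 genes, was number 1498. In the authors' deposited table, with its sign turned to pre-miR-203a over control, POLR1E stood at −1.56 on the log2 scale (SE 0.16). The other 9 genes had log2 fold changes of −0.47 to 0.20 in the authors' deposited table.

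TAF1C and TAF1D differed more between libraries of the same group than between the group means. On the log2(FPKM + 1) scale, library 3 minus the mean of libraries 1 and 2 was −1.23 with pre-miR-203a and −1.77 with empty vector for TAF1C. For TAF1D it was −1.30 with pre-miR-203a and −1.10 with empty vector. Over all tested features the median of this difference was −0.03 with pre-miR-203a and −0.07 with empty vector. Only 41 of 11271 tested features (0.364%) were as low as TAF1C or lower in library 3 of both groups, and 84 (0.745%) as low as TAF1D. Without both libraries numbered 3 the log2 fold changes were −0.05 for TAF1C and 0.03 for TAF1D. Pre-miR-203a library 3 had the fewest reads of all libraries, 7632063, whereas empty-vector library 3 had 28721937. The part of depth or RNA quality in these values was not tested.

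**Figure D3:**
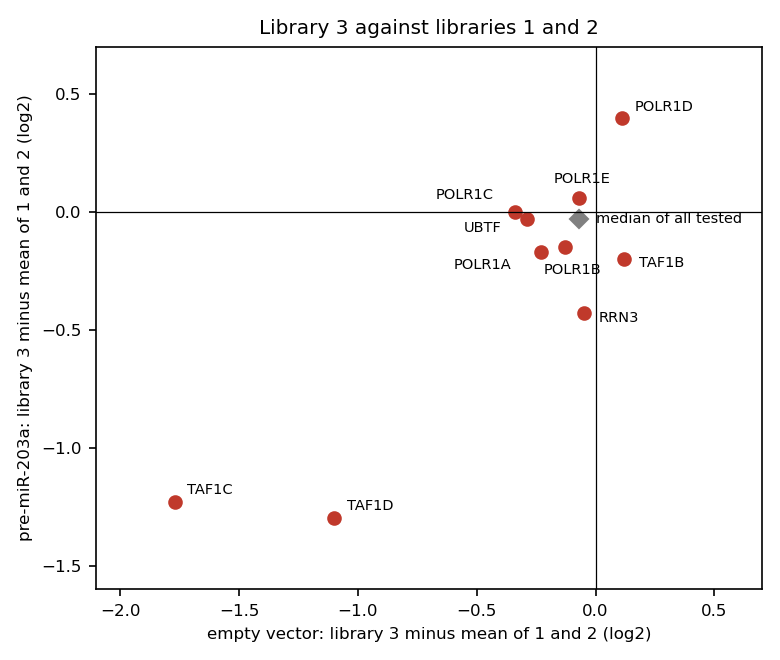
Library 3 minus the mean of libraries 1 and 2 in log2(FPKM + 1), for the pre-miR-203a group (y axis) and the empty-vector group (x axis), with a red point for each of the 10 genes and a grey diamond for the median of all tested features. TAF1C (−1.23 and −1.77) and TAF1D (−1.30 and −1.10) lie far to the lower left, and POLR1E (0.06 and −0.07) lies near the median.

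Among 12 further genes of the polymerase I machinery 2 fell and 10 did not pass the threshold, with a median log2 fold change of −0.19 (−0.01 over all tested features). The share that fell was 16.7%, against 9.18% of all tested features. At an unadjusted limma p under 0.05, 5 were lower and 0 higher, against 17.1% and 13.0% of all tested features. Without overlap between the groups 4 were lower and 0 higher, against 20.9% and 16.6% of all tested features. The list holds the remaining subunits specific to polymerase I, those shared with the other polymerases, the remaining parts of selectivity factor 1 and the terminator-binding factor TTF1. TAF1A, a further subunit of selectivity factor 1, had FPKM of 2.18, 2.44 and 2.13 in the pre-miR-203a libraries, against 5.02, 4.33 and 4.34 in the empty-vector libraries. The groups lay well apart, and TAF1A fell with a log2 fold change of −0.77 ± 0.11 (SE; adjusted p = 0.0067, limma). TTF1, which binds the terminators of the ribosomal RNA genes, averaged 5.43 ± 0.491 FPKM in the pre-miR-203a group and 7.58 ± 0.267 in the empty-vector group (SD, n = 3 each). It fell by 0.42 ± 0.11 on the log2 scale (SE; adjusted p = 0.041, limma), and the adjusted p was 0.057 in the paired fit. When pre-miR-203a library 1 or 2 or any of the empty-vector libraries was left out, TTF1 did not pass the threshold and 1 gene of the list, TAF1A, did. Without pre-miR-203a library 3, 4 genes passed, against 2257 of all 11271 tested features.

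CD3EAP, now called POLR1G, whose product pairs with that of POLR1E, was looked at after its values were seen. It had FPKM of 11.5, 15.1 and 19.8 in the pre-miR-203a libraries and 19.7, 23.4 and 24.7 in the empty-vector libraries. Pre-miR-203a library 3 just reached the lowest empty-vector library, with a log2 fold change of −0.54 ± 0.19 (SE; adjusted p = 0.11, limma). In the paired fit the adjusted p was 0.045, and without pre-miR-203a library 3 it was 0.028 with a log2 fold change of −0.73 (limma).

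Among regulators of polymerase I and nucleolar proteins, NCL, TCOF1, NOLC1 and TOP2A fell. Of 39 genes 8 fell, 1 rose and 30 did not pass the threshold, with a median log2 fold change of −0.12. The share that fell was 20.5%, against 9.18% of all tested features. Of all tested features 6.59% rose. At an unadjusted limma p under 0.05, 11 were lower and 5 higher, against 17.1% and 13.0% of all tested features. Without overlap between the groups 15 were lower and 6 higher, against 20.9% and 16.6% of all tested features. In the paired fit 8 were lower and 2 higher (BAZ2A and SIRT7), against 1122 and 848 of all 11271 tested features. NCL encodes nucleolin, an abundant nucleolar RNA-binding protein, and had FPKM of 93.5, 155 and 80.5 in the pre-miR-203a libraries, against 272, 306 and 310 in the empty-vector libraries. Every pre-miR-203a library was far below every empty-vector library (log2 fold change −1.48 ± 0.24, SE; adjusted p = 0.0081, limma). TCOF1 encodes treacle, which binds UBTF and the polymerase in the nucleolus, and had FPKM of 12.8, 16.8 and 19.3 in the pre-miR-203a libraries, against 36.1, 36.5 and 31.7 in the empty-vector libraries. It fell with a log2 fold change of −1.06 ± 0.16 (SE; adjusted p = 0.0069, limma). NOLC1, a nucleolar phosphoprotein related to treacle, averaged 66.3 ± 9.25 FPKM in the pre-miR-203a group and 124 ± 6.56 in the empty-vector group (SD, n = 3 each; log2 fold change −0.91 ± 0.13, SE; adjusted p = 0.0064, limma).

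TOP2A, a DNA topoisomerase that is also a marker of proliferating cells, had a log2 fold change of −1.74 ± 0.25 (SE; adjusted p = 0.0065, limma). Also lower were RB1 (log2 fold change −0.78, adjusted p = 0.0087, limma), DNMT1 (−0.88, 0.015), CTCF (−0.50, 0.039) and LYAR (−0.56, 0.048). For LYAR the adjusted p was 0.053 in the paired fit. The gene that rose was BAZ2A, which encodes TIP5 of a complex that silences ribosomal RNA genes. SIRT7 was higher without overlap but did not pass the threshold (log2 fold change 0.66, adjusted p = 0.11, limma, and 0.037 in the paired fit). BAZ2A averaged 26.1 ± 0.814 FPKM in the pre-miR-203a group and 19.1 ± 0.395 in the empty-vector group (SD, n = 3 each; log2 fold change 0.43 ± 0.09, SE; adjusted p = 0.022, limma). Without pre-miR-203a library 1 or any 1 empty-vector library its adjusted p was 0.064 to 0.10 (limma), and 0.14 on TPM. MYC, a transcription factor known to promote ribosomal RNA synthesis, averaged 110 ± 16.5 FPKM in the pre-miR-203a group and 100 ± 11.2 in the empty-vector group (SD, n = 3 each; log2 fold change 0.13 ± 0.15, SE; adjusted p = 0.62, limma). Without pre-miR-203a library 1, empty-vector library 1 or empty-vector library 2 the number of regulators past the threshold was 5 each, all lower. Growth state markers moved with these genes, since summed FPKM of MKI67, PCNA, CCNB1 and CDK1 was 209 to 311 in the pre-miR-203a libraries and 550 to 685 in the empty-vector libraries. Their part in the result was not tested.

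**Figure D4:**
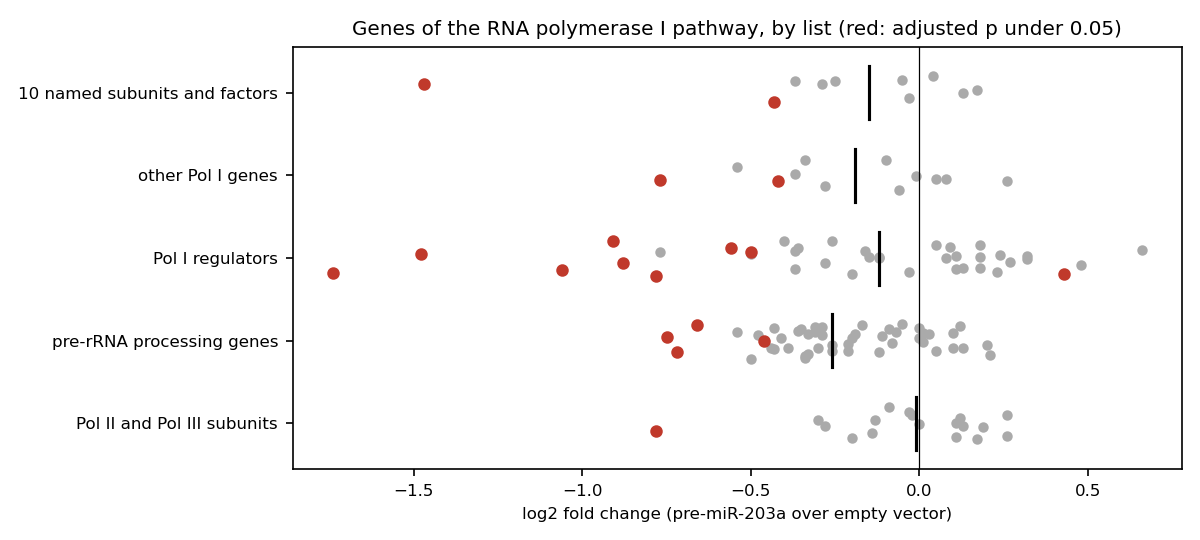
Log2 fold change (x axis, pre-miR-203a over empty vector) of each tested gene in 5 lists, with 1 point a gene, red where the adjusted p (limma) was under 0.05, and a black line at the median of the list; the vertical spread of points carries no meaning. The medians lie at −0.15 for the 10 named genes, −0.19 for further polymerase I genes, −0.12 for regulators, −0.26 for pre-rRNA processing genes and −0.01 for subunits of RNA polymerases II and III.

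Of 49 tested genes for pre-rRNA processing 4 fell and 45 did not pass the threshold. The share that fell, 8.16%, was close to the 9.18% of all tested features. In the paired fit 6 were lower and 0 higher, against 1122 and 848 of all 11271 tested features. At an unadjusted limma p under 0.05, 19 were lower and 0 higher, against 17.1% and 13.0% of all tested features. Without overlap between the groups 18 were lower and 0 higher, against 20.9% and 16.6% of all tested features. The median log2 fold change was −0.26, against −0.01 over all tested features, and 38 (77.6%) had a negative value, against 51.7% of all tested features. NOP2, at FPKM of 0.280 to 0.799 with pre-miR-203a and 0.126 to 0.784 with empty vector, was below the filter. EBNA1BP2, a factor of large-subunit assembly, averaged 40.3 ± 4.84 FPKM in the pre-miR-203a group and 68.2 ± 1.32 in the empty-vector group (SD, n = 3 each; log2 fold change −0.75 ± 0.12, SE; adjusted p = 0.008, limma). BRIX1, also of large-subunit assembly, had a log2 fold change of −0.72 ± 0.17 (SE; adjusted p = 0.031, limma). WDR43, of the small-subunit processome, had −0.66 ± 0.17 (SE; adjusted p = 0.043, limma), and PNO1, of small-subunit maturation, −0.46 ± 0.12 (SE; adjusted p = 0.047, limma, and 0.062 in the paired fit). Without pre-miR-203a library 1 or any 1 empty-vector library 1 gene of this list passed the threshold. Without both libraries numbered 3 the count was 9, against 3190 of all 11271 tested features.

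Subunits found only in RNA polymerases II and III gave 1 gene that fell of 18 tested, with 17 that did not pass the threshold and a median log2 fold change of −0.01. The share that fell was 5.56%, against 9.18% of all tested features. Without overlap between the groups 4 were lower and 1 higher, against 20.9% and 16.6% of all tested features. POLR3K, a small subunit of RNA polymerase III, had FPKM of 10.4, 12.5 and 12.2 in the pre-miR-203a libraries and 20.1, 21.7 and 20.3 in the empty-vector libraries. Its groups were clearly separate (log2 fold change −0.78 ± 0.11, SE; adjusted p = 0.0061, limma). In these 18 genes 0 were higher by adjusted or unadjusted limma p or by limma-voom on recovered reads. Without both libraries numbered 3, 3 were lower and 1 higher, POLR3GL (log2 fold change 0.39, adjusted p = 0.033, limma). In that fit 1951 of all 11271 tested features were lower and 1239 higher. POLR3A, at 8.77 ± 0.354 FPKM in the pre-miR-203a group and 7.16 ± 0.726 in the empty-vector group (SD, n = 3 each), was higher without overlap but did not pass the threshold (adjusted p = 0.17, limma). In the lists of further polymerase I genes and of pre-rRNA processing 0 genes were higher by adjusted or unadjusted limma p or by limma-voom. Of all 11271 tested features 6.59% were higher by adjusted and 13.0% by unadjusted limma p, and 813 features by limma-voom.

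The 5 features whose profile was most like that of POLR1E were TUBGCP2, SRC, GINS3, COPS4 and NIPSNAP2, out of 11096 with a mean FPKM of at least 1. Likeness was the root mean square difference of log2(FPKM + 1) over the 6 libraries after centring each gene on its own mean, and it was 0.070, 0.077, 0.105, 0.111 and 0.115 in that order. TUBGCP2, a gamma-tubulin complex protein, had FPKM of 4.43, 5.49 and 4.70 in the pre-miR-203a libraries and 14.9, 17.1 and 15.8 in the empty-vector libraries. SRC, a tyrosine kinase, had 7.07, 7.19 and 8 in the pre-miR-203a libraries and 19.8, 24.6 and 23.5 in the empty-vector libraries. All 5 had log2 fold changes between −1.67 and −1.39, as the choice by likeness implies. The best seed match in the longest 3′ UTR was an 8mer in SRC and COPS4, a 7mer-m8 in GINS3 and a 6mer in NIPSNAP2, while TUBGCP2, like POLR1E, had none. Among the other 9 genes of the polymerase I set TAF1B came closest to POLR1E, at 0.535, which was place 1289.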

How the data were processed

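RNA-seq values of 6 libraries were used, with groups and replicate numbers from the sample titles. The submitters' processing notes name hg38, featureCounts 2.0.0, DESeq2 1.28.1, FastQC 0.11.5 and MultiQC 1.6. Not given in the sources used here were the aligner, the annotation release and whether strand was counted. Reads of genes that overlap on opposite strands may therefore not be told apart. In GENCODE 29 such overlaps include POLR1E with AL158156.1, POLR1C with XPO5, RRN3 with PDXDC1, TAF1C with DNAAF1 and TAF1D with MED17 and CEP295. UBTF overlaps AC004596.1 and AC003102.1 in the same way, and POLR1D overlaps AL136439.1 and NPM1P4. The authors deposited FPKM values, scaled by feature length and library total, and a table with TPM values, a baseMean signal (a mean of normalised reads over all libraries), p-values, and log2 fold changes with control on top. The authors' log2 fold changes were turned in sign here.

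Limma 3.58.1 (R 4.3.3) was run on log2(FPKM + 1) with no term besides the group, with trended and robust variances, over 11271 features with FPKM of at least 1 in 3 or more libraries. Benjamini-Hochberg adjustment of p ran over all of them, with a threshold of 0.05. Fold changes on this scale understate changes of low features. Whole reads were recovered from FPKM and baseMean, and 100% of values were whole within 0.01; their totals cover listed features only. No library was a copy of another: chi-square per feature within groups was 10.1 to 79.2.

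Deviations from the group means correlated at 0.433, 0.269 and 0.321 between libraries of the same number, and at −0.417 to 0.221 between different numbers, so the numbers were taken to pair the libraries, as a property of the data; the labels state no shared batch. The main values come from the fit without this block. The fit with the block is printed where it changes a call of a named gene or the count of a list. On simulated reads with 200 changed genes among 11111, the share recovered was 28.1% at 1.5-fold, 95.5% at 2-fold and 100% at 4-fold, with 14 false calls. The simulation gave every feature the same dispersion and held no paired libraries and no shift of the libraries numbered 3. Its shares therefore do not carry over to genes as variable as TAF1C and TAF1D. The genes, the 4 further lists (119 entries) and the tests were chosen with earlier results of these data known. Named genes were the 10 genes, MIR203A, up to 4 genes with the smallest p past the threshold in each list, and the 5 most like POLR1E. Added after their values were seen were CD3EAP, BAZ2A, RB1, DNMT1, CTCF, LYAR, SIRT7, MYC, NOP2, POLR3A and POLR3GL. The marker genes CDH1, ITGB4, KRT5, KRT14, KRT17, TP63, KRT8 and COL1A1 were also added then. Positions and 3′ UTRs come from GENCODE 29 (GRCh38), joined by Ensembl identifier without version. Python 3.11.15, numpy 2.4.6, pandas 2.3.3 and matplotlib 3.10.9 were used.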

Additional observations from a re-analysis of the deposited data

How the results depend on the processing

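The difference of POLR1E from the other 9 genes moved by less than the spread between libraries under all 14 other settings, from −1.49 (limma-voom on recovered reads) to −1.23 (without empty-vector library 3), and was −1.35 with the replicate number as a block. Leaving out 1 library each, the count of all features past the threshold was 745 to 2257, that of further polymerase I genes 1 to 4, of regulators 5 to 11 and of pre-rRNA processing genes 1 to 6. Without both libraries numbered 3, a setting chosen after seeing the data, the counts were 3190, 5, 10 and 9, and 4 for subunits of polymerases II and III, of which 1 was higher. Further polymerase I genes gave 1 with no filter on low values, 1 on TPM and 1 with limma-voom on recovered reads (also added later), and pre-rRNA processing genes 1 with no filter. The block gave 1970 features, of which 43.0% were higher. It gave 2 further polymerase I genes, 10 regulators (8 lower and 2 higher) and 6 pre-rRNA processing genes. Besides TAF1B, TTF1, PNO1, CD3EAP, LYAR, SIRT7, ITGB4, KRT17 and TP63 it changed no call of a named gene. On TPM 30.2% of called features were higher, against 41.8% on FPKM, and the median log2 fold change was −0.11, against −0.01. Over the 14 other settings calls of named genes were lost 46 times (TAF1B 10, PNO1 10, TTF1 9, WDR43 7, BRIX1 5 and BAZ2A 5) and gained 4 times (CD3EAP 3 and UBTF 1), and no called gene among those recomputed turned direction. These counts leave out the cell type and growth state markers and RB1, DNMT1, CTCF, LYAR, SIRT7, MYC, NOP2, POLR3A and POLR3GL. POLR1C, POLR1D, TAF1C and TAF1D, which passed the threshold in no setting, had values on both sides of 0 (for TAF1C −0.46 to 0.54). Changes of 1.5-fold were mostly missed at this number of libraries in the simulated data.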
